A study of Mus musculus with 13 samples.

Results

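Genes that build the mitotic spindle and carry a cell through mitosis were followed in a stromal cell clone with and without blood stem cells. The set was a list of 47 mitosis and spindle genes, from the cyclins and kinases that start mitosis to the proteins that split the daughter cells. A gene entered through the probe sets, groups of short array probes for 1 transcript, that carried its symbol and no other in the platform annotation, and the probe set with the highest mean over all 13 arrays stood for it. Of the 47 genes 46 were found, out of 18193 genes with such a probe set. Ccnb1 had none under that symbol and was not analysed here. All 46 also passed the filter on dim probe sets, out of 12205 genes tested.

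UG26-1B6 is a single stromal clone from the urogenital ridge of a midgestation mouse embryo. Gene expression was measured on 13 Affymetrix mouse arrays in 5 groups. The day 0 group (d0, n = 3) was stroma taken by trypsin before any co-culture, and the medium control (n = 2) was stroma harvested 24 h after its medium had been changed. The other groups were stroma kept with Lineage- Sca-1+ Kit+ cells (LSKs), a bone marrow fraction rich in blood stem and progenitor cells, for 1 day (n = 3), 2 days (n = 3) or 3 days (n = 2). Per the labels' protocols the stroma of the co-cultures was grown until confluent and received 30 Gy before the LSK cells were added. The sources used here do not say whether day 0 and medium control stroma was irradiated too, or how LSK cells were removed when RNA was taken. An effect of LSK cells and an effect of irradiation therefore cannot be told apart where a co-culture is compared with either of these groups. Levels are log2 values, so that a difference of 1 is a doubling, and the lowest value an array could give was 2.28.

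Most mitosis genes are silent for much of the cell cycle and are transcribed together shortly before division. Cyclin-bound Cdk1 and the Aurora and Polo kinases start mitosis, kinesin motors and their partners build the spindle, the kinetochore ties chromosomes to it, and a checkpoint holds back their separation until every chromosome is attached. The shared timing is attributed to short promoter elements, among them the cell cycle homology region TTTGAA, bound by the MuvB complex with its partners, and CCAAT boxes, bound by NF-Y. Stroma that supports blood stem cells in culture is commonly irradiated so that it no longer divides.

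The promoters are shown first, because these elements were more frequent among the listed genes than over all genes, though not universal. RefSeq promoter windows (GRCm38.p6, 300 bases, from 250 before to 50 after a transcript's start) were given for 40 of the 47 listed genes, Ccnb1 among them. TTTGAA, searched on both strands (so also TTCAAA), lay between 100 bases before and 50 after the start in 27 of those 40 genes (67.5%), against 9.23% of the 27025 genes with a window. CCAAT on either strand (also ATTGG) lay in the windows of 28 of 40 (70.0%), against 41.1%. More than 1 CCAAT was found in 45.0% of the listed genes and 13.3% of all genes, and both motifs in 60.0% and 7.97%. Matches of the motifs were counted separately, also where they overlapped. Of these windows 4 are printed, read on each gene's own strand from 150 bases before to 50 after the start, with TTTGAA or TTCAAA and CCAAT or ATTGG in capitals. They are those of Aurka and Kif11, which fell on day 1, and of the mitotic kinase Cdk1 and the cyclin Ccnb2, which passed on day 1 without day 2 replicate 1 but not in the full fit. They lie at chr2:172370521-172370720 (Aurka, minus strand), chr9:70421505-70421704 (Ccnb2, minus strand), chr10:69352863-69353062 (Cdk1, minus strand) and chr19:37376232-37376431 (Kif11, plus strand).
Aurka: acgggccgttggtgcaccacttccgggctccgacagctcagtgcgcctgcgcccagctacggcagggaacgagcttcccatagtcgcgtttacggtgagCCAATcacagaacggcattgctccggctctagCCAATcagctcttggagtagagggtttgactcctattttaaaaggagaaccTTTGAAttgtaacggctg
Ccnb2: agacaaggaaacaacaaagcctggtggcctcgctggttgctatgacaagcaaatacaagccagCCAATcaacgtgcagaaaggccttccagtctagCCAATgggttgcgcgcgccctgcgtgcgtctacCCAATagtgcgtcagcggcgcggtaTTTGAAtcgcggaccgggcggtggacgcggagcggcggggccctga
Cdk1: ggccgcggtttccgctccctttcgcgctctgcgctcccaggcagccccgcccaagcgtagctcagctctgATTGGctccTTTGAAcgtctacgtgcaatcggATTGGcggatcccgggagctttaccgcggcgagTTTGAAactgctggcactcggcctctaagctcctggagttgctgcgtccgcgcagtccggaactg
Kif11: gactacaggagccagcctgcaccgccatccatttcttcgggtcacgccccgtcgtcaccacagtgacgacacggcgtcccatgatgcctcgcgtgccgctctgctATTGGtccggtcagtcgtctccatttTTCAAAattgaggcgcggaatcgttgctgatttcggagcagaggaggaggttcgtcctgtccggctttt

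In Aurka, Ccnb2 and Cdk1 a pair of CCAAT boxes on 1 strand started 31 to 33 bases apart, and a TTTGAA lay nearer to or beyond the start. That spacing was looked for after the windows had been seen. It occurred in 8 of the 40 genes (Aurka, Ccnb1, Ccnb2, Cdk1, Hmmr, Nek2, Spc25 and Ube2c, 20.0%) and in 0.918% of all genes. Among genes with a window and a level, the 27 with TTTGAA near the start had a median difference of -2.02 between day 1 co-culture and the medium control (range -4.20 to 0.51), and the 12 without it -2.08 (-3.73 to 0.84).

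Arrays inside a group were not alike, and 2 of them stood apart. Day 2 replicate 1 and day 3 replicate 2 had the highest median levels of blood cell markers, with a median over 18 markers of 8.75 and 4.85 against 2.28 to 2.70 on the other 11 arrays. On these arrays 14 and 9 of the 18 markers exceeded 5, against 0 to 1 without LSK cells and 5 to 7 on the other co-culture arrays. Kit, Gata1 and Cd48 were at or near the lowest value everywhere. The median of 10 stroma markers was 4.40 on day 2 replicate 1 and 7.33 to 11.05 elsewhere, and Thy1 and Lum were at or near the lowest value on every array. The same 2 arrays had the largest gap between the 3-prime and 5-prime probe sets of Gapdh, a measure of RNA and amplification quality, at 8.96 and 5.79 against 2.15 to 3.82. Spiked-in poly-A controls averaged 4.63 to 8.55 on the 5 arrays without LSK cells and 10.07 to 14.44 with them. These ranges did not overlap, so each comparison of a co-culture with day 0 or the medium control also differs in spike-in level. That difference cannot be told apart from those of LSK cells and irradiation. In bulk RNA fewer cells of a type and less RNA per cell cannot be told apart.

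**Figure D1:**
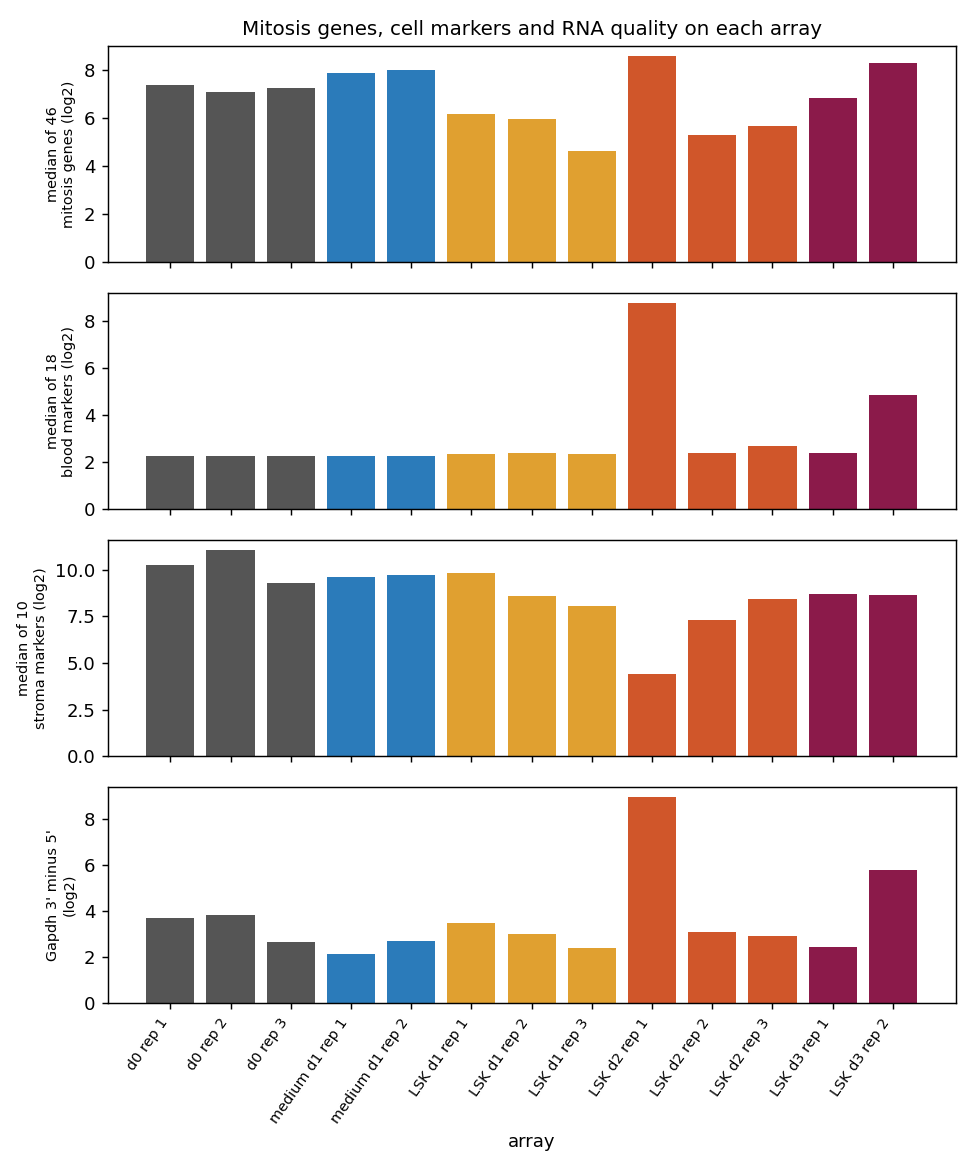
Bars give 1 value per array: from top to bottom, the median log2 level of the 46 mitosis genes, of 18 blood cell markers and of 10 stroma markers, and the log2 difference between the 3-prime and 5-prime Gapdh probe sets, coloured by group. Day 2 replicate 1 and day 3 replicate 2 are highest in the panels of mitosis genes, blood markers and Gapdh, and day 2 replicate 1 is lowest in the panel of stroma markers.

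Across the arrays the mitosis genes were higher in the median after the medium change, lower on day 1 with LSK cells, and split by array on days 2 and 3. Their median level was 7.08 to 7.38 on day 0, 7.88 and 7.97 in the medium control, and 6.15, 5.94 and 4.61 on day 1 with LSK cells. On day 2 it was 8.56, 5.28 and 5.65, and on day 3 it was 6.84 and 8.29. Taken gene by gene against the day 0 mean, the median difference was 0.78 and 0.83 in the medium control, then -0.89, -1.44 and -2.15 on day 1. It was 1.18, -1.65 and -1.18 on day 2, and -0.52 and 1.13 on day 3. The median over all tested genes was 0 on every array except day 2 replicate 1 (-0.42) and day 2 replicate 2 (-0.22). The high arrays of days 2 and 3 were the same ones that were high in blood markers, and the part of those markers in the mitosis levels was not tested.

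**Figure D2:**
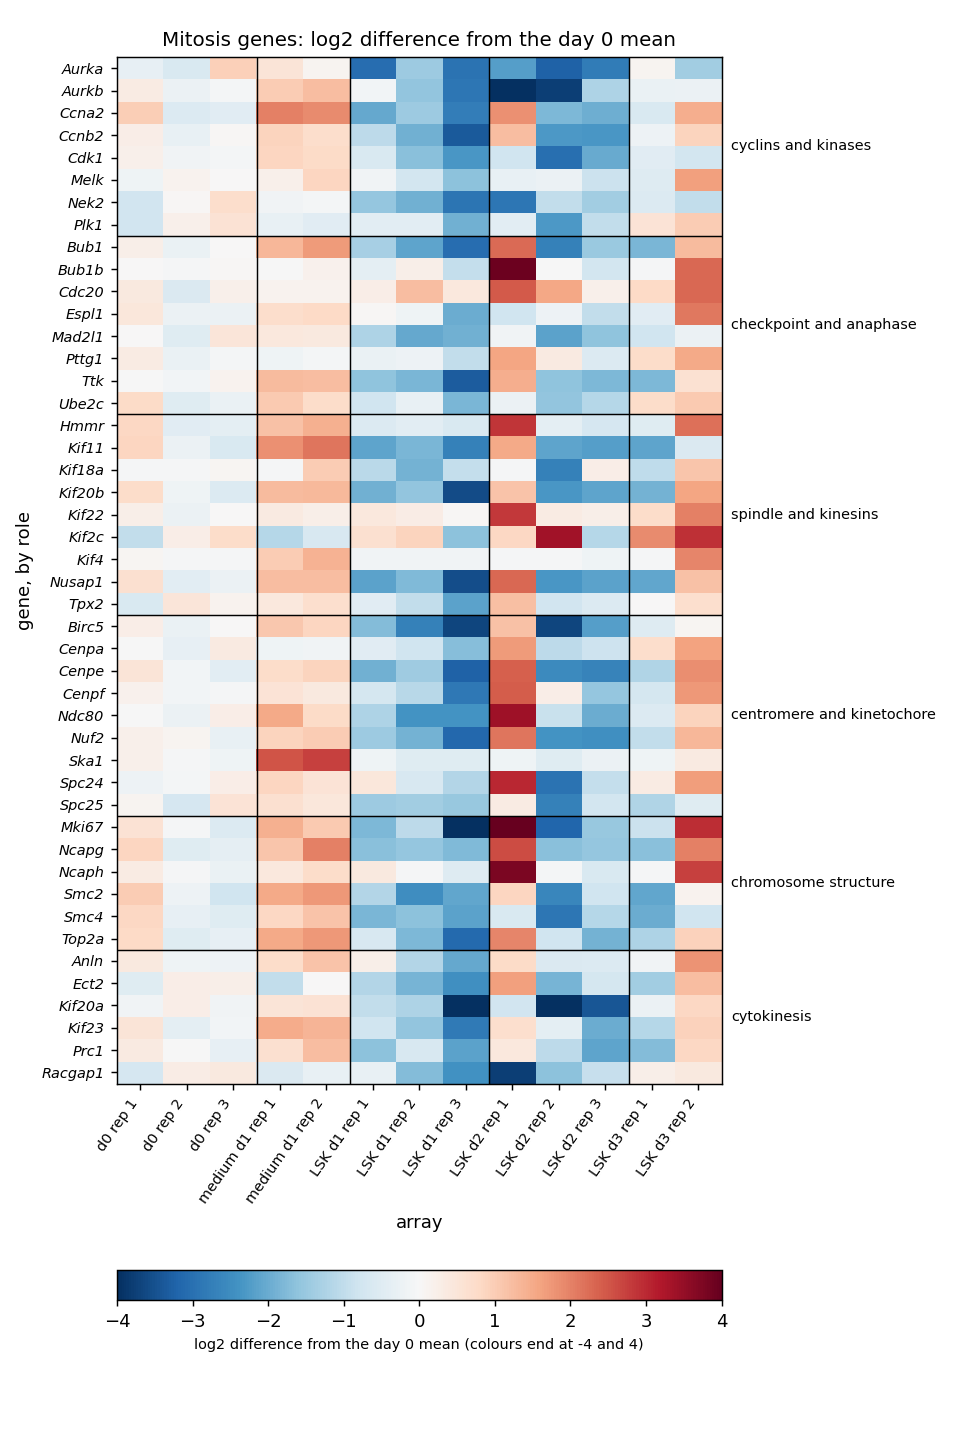
Each row is a mitosis gene, grouped by role, and each column an array; colour gives the log2 difference from that gene's day 0 mean, blue for lower and red for higher, ending at -4 and 4. The medium control columns are mostly red, the 3 day 1 co-culture columns mostly blue, and day 2 replicate 1 and day 3 replicate 2 are mostly red beside the bluer arrays of their groups.

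The medium control against day 0 compares stroma 24 h after a change of medium with stroma at the start, both without LSK cells. Ska1, which helps the kinetochore hold on to shortening microtubules, was the single mitosis gene that rose past the threshold (limma, adjusted p below 0.05 over all genes), by 2.61 ± 0.23 (standard error, adjusted p = 0.00216). This call was lost with the mean of its probe sets (adjusted p = 0.453) and with array medians set equal (0.139), in a range over all alternatives from 0.000547 to 0.453. Under a stricter filter (above 3.38 on 3 or more arrays) Ska1 was not tested. In the full fit Ska1 was 1 of 46, where 0.221% of all genes tested rose and 0.107% fell. The 46 genes had a median difference of 0.81, against 0 over all genes, and 39 were higher in the mean. Both medium arrays lay above all day 0 arrays for 31 of 46 genes (20.6% of all genes) and below them for 0 (22.7%). Kif11 differed by 1.99 ± 1.03 (adjusted p = 0.633), Top2a by 1.62 ± 1.13 (0.813) and Bub1 by 1.51 ± 1.33 (0.904), with no overlap between the groups in any of the 3. All 6 genes of chromosome structure stood above day 0 on both medium arrays (20.6% of all genes). Plk1 (-0.37 ± 0.64) and Aurka (0.32 ± 0.66) overlapped with day 0.

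After 1 day with LSK cells, 4 mitosis genes fell against the medium control of the same age: Kif11, Ska1, Smc4 and Aurka. These 4 of 46 stand beside 3.05% of all genes that fell and 2.15% that rose. The mean was lower for 44 of the 46, with a median difference of -2.24 against 0 over all genes and a range from -4.20 to 0.84. All 3 co-culture arrays lay below both medium arrays for 40 genes, which held for 31.8% of all genes. They lay above both for 1 gene, Cdc20, against 30.7%. At an unadjusted p below 0.05 there were 28 lower genes and 0 higher, beside 11.9% and 9.04% of all genes. Fitted without day 2 replicate 1, which is no part of this comparison but enters the shared estimate of the spread, 24 of the 46 fell and 0 rose, beside 9.62% of all genes that fell and 7.61% that rose. Without both arrays that stood apart 27 fell, beside 11.9% of all genes. The count was 9 without day 2 replicate 2 (4.35% of all genes fell), 8 without day 2 replicate 3 (5.35%), 2 without day 0 replicate 1 (3.34%) or 3 (2.18%), and 1 (Ska1) without day 0 replicate 2 (2.09%) or any array of the compared groups (0.0574% to 0.623%). Over all alternatives the call of Ska1 was lost in 1 of 21, that of Smc4 in 10 of 22, Aurka in 11 of 22 and Kif11 in 16 of 22. Ska1 has fewer settings because it was too dim to be tested under the stricter filter.

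**Figure D3:**
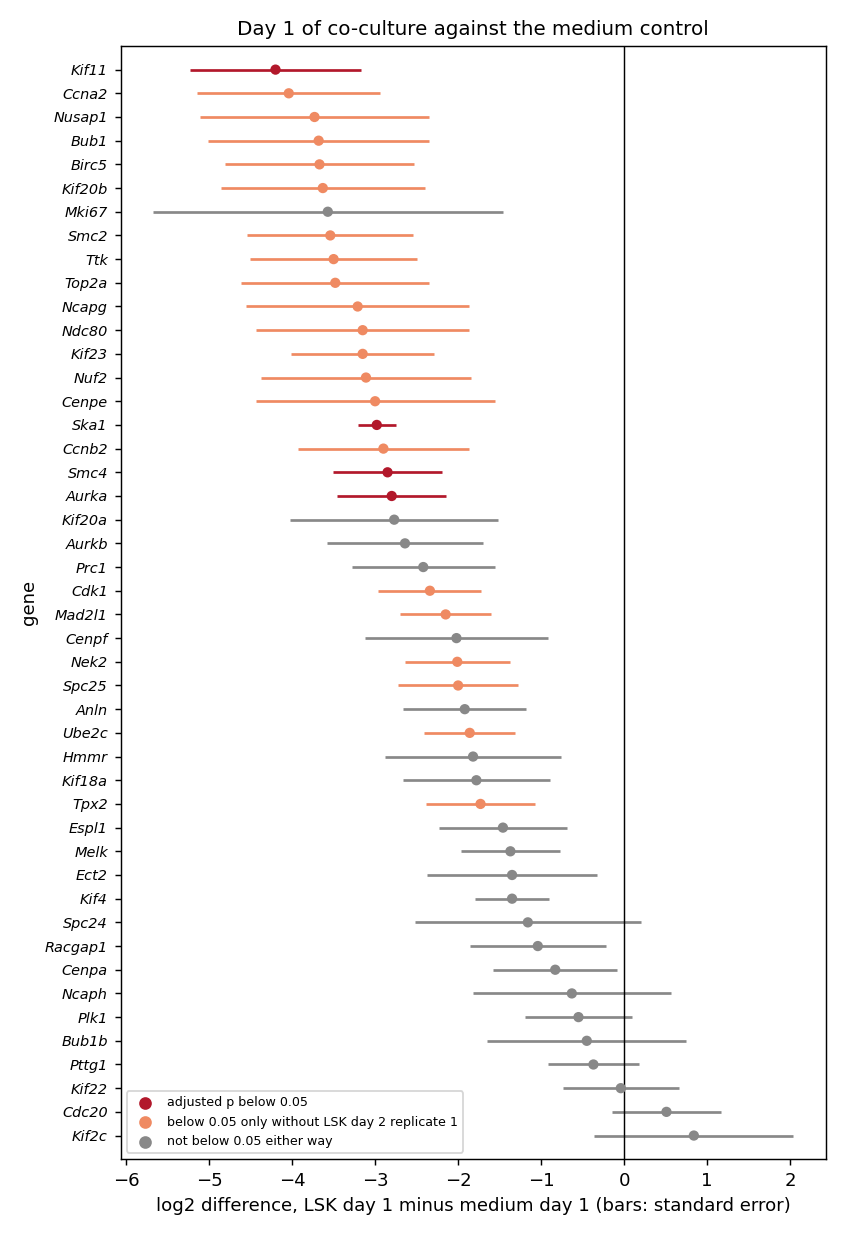
Points give the log2 difference between day 1 with LSK cells and the medium control for each of the 46 mitosis genes, and bars its standard error; red marks the 4 genes with an adjusted p below 0.05, orange those below it when day 2 replicate 1 is left out of the fit, and grey the rest. All points but Cdc20 and Kif2c lie left of 0, and Kif11 is the farthest at -4.20.

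Among the cyclins and kinases, Aurka fell and the other 7 measured genes did not pass. Aurka encodes Aurora A, the kinase that matures centrosomes and spindle poles. It measured 5.90, 5.59 and 7.16 on day 0, 6.75 and 6.33 in the medium control, 3.18, 4.76 and 3.28 on day 1, 4.03, 2.99 and 3.41 on day 2, and 6.34 and 4.84 on day 3. All 6 arrays of days 1 and 2 were lower than every array of the other groups, and the array with the most blood marker signal, day 2 replicate 1, was among them. The difference on day 1 was -2.80 ± 0.66 against the medium control (adjusted p = 0.0441) and -2.48 ± 0.59 against day 0 (0.0674). Cdk1, the kinase that drives entry into mitosis, measured 9.57, 9.22 and 9.30 on day 0, 10.21 and 10.12 in the medium control, and 8.75, 7.70 and 7.03 on day 1. Day 2 gave 8.58, 6.33 and 7.34, and day 3 gave 8.91 and 8.63. Every co-culture array was below every day 0 array, and both medium arrays were above them. Against the medium control Cdk1 differed by -2.34 ± 0.62 on day 1 (adjusted p = 0.0613, and 0.0155 without day 2 replicate 1).

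Aurkb, the kinase of the chromosomal passenger complex that corrects faulty attachments, measured 7.22, 6.65 and 6.80 on day 0, 7.91 and 8.11 in the medium control and 6.77, 5.31 and 4.01 on day 1. The day 2 levels were 2.40, 3.14 and 5.67, and those of day 3 were 6.61 and 6.67. The day 1 arrays were all below the medium control, with replicate 1 inside the day 0 range, and day 2 replicate 1 gave the lowest level of all. The difference on day 1 was -2.64 ± 0.94 (adjusted p = 0.142). Plk1, the Polo kinase of mitotic entry and spindle assembly, differed least in this group. It measured 6.11, 7.08 and 7.46 on day 0, 6.58 and 6.44 in the medium control, 6.45, 6.45 and 4.98 on day 1, 6.45, 4.58 and 5.91 on day 2, and 7.43 and 7.91 on day 3. Its day 1 arrays overlapped with the medium control, and the difference was -0.55 ± 0.64 (adjusted p = 0.764). The S-phase and mitotic cyclins Ccna2 and Ccnb2 differed by -4.04 ± 1.10 and -2.90 ± 1.03, and the centrosome kinase Nek2 by -2.01 ± 0.63. All 3 passed without day 2 replicate 1, as did Cdk1 and Aurka, 5 of the 8, beside 9.62% of all genes that fell in that fit.

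No checkpoint or anaphase gene passed on day 1. Bub1, a checkpoint kinase of the kinetochore, measured 7.67, 7.17 and 7.45 on day 0, 8.75 and 9.14 in the medium control, and 6.10, 5.31 and 4.37 on day 1. On day 2 it measured 9.68, 4.73 and 5.96, and on day 3 it measured 5.59 and 8.70. The day 1 arrays were below both control groups, and days 2 and 3 each had an array above and others below day 0. The difference from the medium control was -3.68 ± 1.33 on day 1 (adjusted p = 0.146, and 0.0244 without day 2 replicate 1). The checkpoint kinase Ttk (-3.50 ± 1.01), the checkpoint protein Mad2l1 (-2.15 ± 0.55) and the ubiquitin-conjugating enzyme Ube2c (-1.86 ± 0.55) likewise passed in that fit but not in the full one. Cdc20, the activator of the anaphase-promoting complex, measured 11.26, 12.20 and 11.41 on day 1 against 11.12 and 11.11 in the medium control (0.51 ± 0.66, adjusted p = 0.807). Its other probe sets differed by -0.40 and -0.09, so that the direction of Cdc20 depends on the probe set. Securin, encoded by Pttg1, differed by -0.37 ± 0.55, and by -0.27 and 0.54 on its other probe sets. The checkpoint gene Bub1b differed by -0.45 ± 1.20 on the probe set that stood for it, and by -1.61 and -0.05 on its others.

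The spindle motor Kif11, which pushes the spindle poles apart, had the largest difference of the set. It measured 5.94, 4.85 and 4.48 on day 0, 6.92 and 7.24 in the medium control, and 2.99, 3.25 and 2.38 on day 1. Day 2 gave 6.62, 2.99 and 2.90, and day 3 gave 2.99 and 4.51. The day 1 arrays lay below all arrays of both control groups and close to the floor of the scale. The fall against the medium control was -4.20 ± 1.03 (adjusted p = 0.0483), and without day 2 replicate 1 the adjusted p was 0.00391. Among the other 8 spindle genes the microtubule binder Nusap1 (-3.73 ± 1.38) and the kinesin Kif20b (-3.63 ± 1.23) came next, and neither passed in the full fit. Both passed without day 2 replicate 1 (adjusted p = 0.0253 and 0.0362), as did the spindle assembly factor Tpx2 (-1.73 ± 0.66, and 0.0452 in that fit). Kif4, a chromosome-bound kinesin, was at 2.31 on all 3 day 1 arrays, under the filter value of 2.38. Its difference of -1.35 is thus one from a level near the floor of the scale. The microtubule depolymerase Kif2c (0.84 ± 1.20) and the chromokinesin Kif22 (-0.04 ± 0.70) overlapped between the groups.

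Of the 9 centromere and kinetochore genes, Ska1 fell, and all 9 had every day 1 co-culture array below both medium arrays (31.8% of all genes). Ska1 measured 2.97, 2.69 and 2.60 on day 0, 5.25 and 5.48 in the medium control, and 2.60, 2.28 and 2.28 on day 1. The day 2 levels were 2.60, 2.28 and 2.53, and those of day 3 were 2.60 and 3.11. The medium control was the high group, and the other 11 arrays sat within 1 log2 unit of the lowest value. Its difference of -2.98 ± 0.23 (adjusted p = 0.00165) is thus one between a measured level and one near the floor. The outer kinetochore genes Ndc80 (-3.15 ± 1.28) and Nuf2 (-3.11 ± 1.27), the motor Cenpe (-3.0 ± 1.44), Spc25 (-2.0 ± 0.72) and survivin, encoded by Birc5 (-3.67 ± 1.14), passed without day 2 replicate 1 but not in the full fit. Cenpa, the histone of centromeres, differed by -0.83 ± 0.75.

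Chromosome structure genes had the largest median difference on day 1 by role, -3.34 over 6 genes. Smc4, a core subunit of both condensins, fell. It measured 11.71, 10.56 and 10.38 on day 0, 11.72 and 12.02 in the medium control, 9.06, 9.23 and 8.75 on day 1, 10.28, 7.99 and 9.76 on day 2, and 8.92 and 10.10 on day 3. On this probe set every co-culture array was lower than every array without LSK cells. On its further probe sets co-culture overlapped with day 0. On one, day 2 replicate 1 was at 8.34 against 10.09, 6.07 and 6.34 on day 0. On the other, day 2 replicate 2 was at 6.57 against 8.48, 5.32 and 6.95. The fall on day 1 was -2.85 ± 0.66 against the medium control (adjusted p = 0.042). Top2a, the topoisomerase that untangles sister chromatids, measured 10.33, 9.05 and 9.20 on day 0, 11.05 and 11.26 in the medium control, and 8.88, 7.73 and 6.41 on day 1. On day 2 it measured 11.49, 8.72 and 7.62, and on day 3 it measured 8.28 and 10.45. Day 1 was below day 0 on all arrays, and day 2 replicate 1 was above every other array. Top2a differed from the medium control by -3.48 ± 1.13 on day 1 (adjusted p = 0.111, and 0.0272 without day 2 replicate 1).

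Mki67, the marker of dividing cells that coats mitotic chromosomes, varied most from array to array. It measured 8.30, 7.65 and 7.17 on day 0, 9.13 and 8.76 in the medium control, and 5.90, 6.65 and 3.57 on day 1. Day 2 gave 12.68, 4.54 and 6.17, and day 3 gave 6.84 and 10.66. The day 1 arrays were below all arrays without LSK cells, while day 2 replicate 1 and day 3 replicate 2 were above all of them. The difference on day 1 was -3.57 ± 2.11 (adjusted p = 0.401, and 0.0755 without day 2 replicate 1). The other condensin genes Smc2 (-3.54 ± 1.00) and Ncapg (-3.21 ± 1.34) passed in that fit, and Ncaph (-0.63 ± 1.19) did not. Of the 6 cytokinesis genes none passed in the full fit. The motor of the central spindle Kif23 (-3.15 ± 0.86, adjusted p = 0.0677) passed without day 2 replicate 1, and the RhoA activator Ect2 (-1.35 ± 1.02) and its partner Racgap1 (-1.04 ± 0.82) did not.

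**Figure D4:**
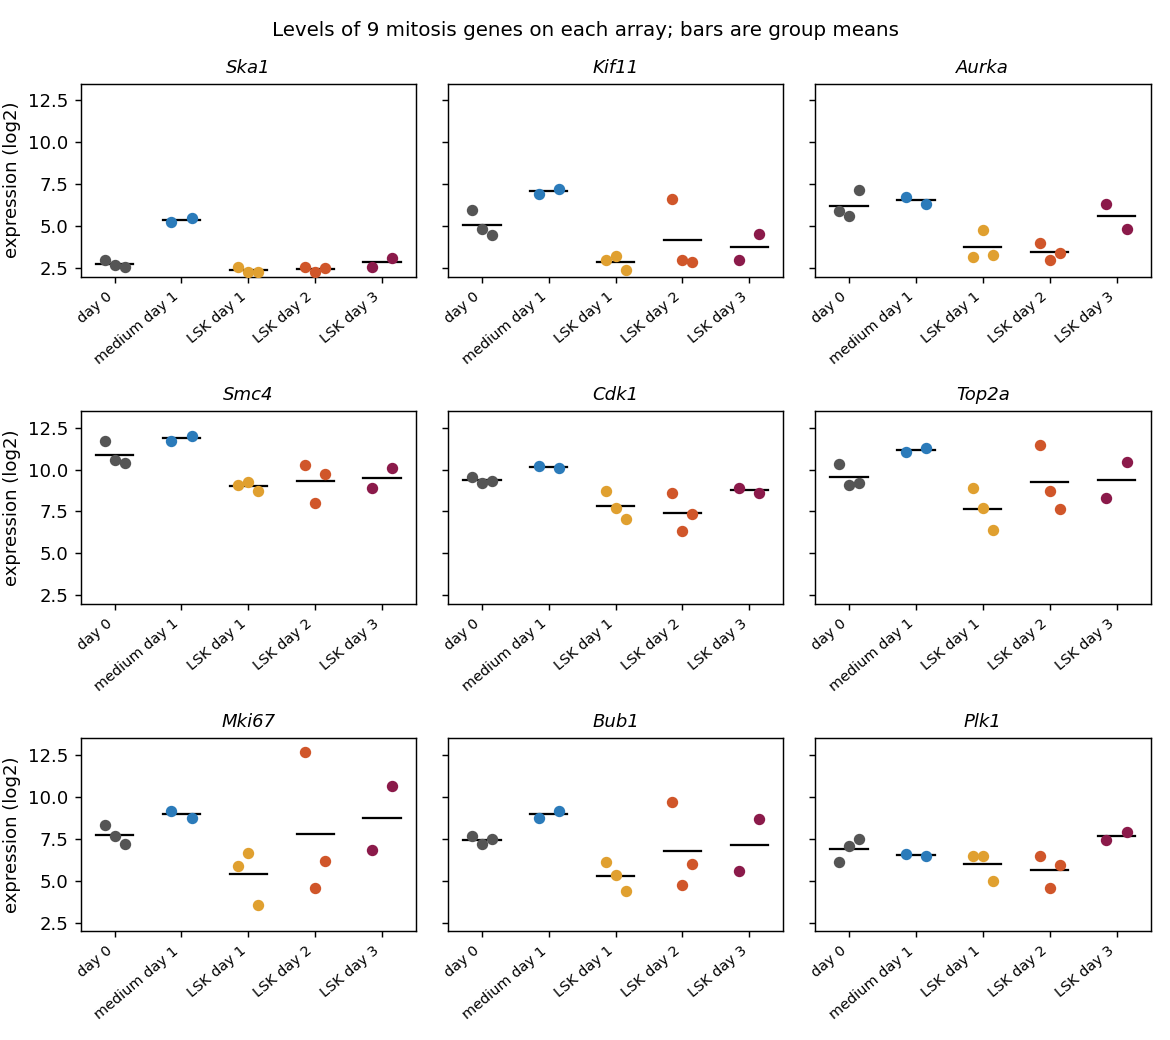
Points give the log2 level of 9 mitosis genes on each array by group, and horizontal bars the group mean. Day 1 with LSK cells is below the medium control for each gene but Plk1, whose groups overlap; on day 2, 1 array of Mki67 reaches 12.68 while the others are at 4.54 and 6.17.

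Against day 0, no mitosis gene passed on day 1 of co-culture, beside 1.33% of all genes that fell and 0.828% that rose (limma). At an unadjusted p below 0.05 there were 10 lower genes (9.77% of all genes), and the smallest adjusted p was 0.0674. The median difference was -1.54, against 0 over all genes, and 44 of 46 were lower in the mean. All 3 co-culture arrays lay below all day 0 arrays for 29 genes (21.3% of all genes) and above them for 0 (17.7%). Without day 2 replicate 1, 7 genes fell (Aurka, Ccnb2, Nek2, Mad2l1, Kif11, Ndc80 and Birc5), and 0 rose, beside 6.22% and 4.35% of all genes, and 1 fell without day 2 replicate 2 (2.38% of all genes). Kif11 differed by -2.22 ± 0.92, Smc4 by -1.87 ± 0.59 and Cdk1 by -1.54 ± 0.55 in the full fit. Ska1 (-0.37 ± 0.20) was low in both groups. Day 1 replicate 3 was the lowest of the 3 arrays for 38 of the 46 genes (30.4% of all genes) and the lowest of all 13, with no tie, for 26 (3.02%).

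On day 2 the set came apart by array. Aurka fell against day 0, by -2.74 ± 0.59 (adjusted p = 0.0498), the single gene of 46 beside 1.62% of all genes that fell and 0.639% that rose. This call was lost in 16 of 22 other settings, with adjusted p from 0.0212 to 0.375. Without day 2 replicate 1, Cdk1 (-2.53, adjusted p = 0.0387), Mad2l1 and Birc5 passed as lower and 0 as higher, beside 1.56% and 0.926% of all genes, while Aurka had an adjusted p of 0.0543. Without day 2 replicate 3, 3 genes were lower and 1 higher past the threshold, beside 22.6% and 6.02% of all genes, and there were 0 when day 2 replicate 2 or any 1 array of day 0 or of either day 1 group was left out. The median difference over the 46 genes was -0.65 with day 2 replicate 1 and -1.51 without it, against -0.29 and -0.11 over all genes. With array medians set equal it was 0.13, against 0.49 over all genes. All 3 day 2 arrays were below all day 0 arrays for 8 genes (16.2% of all genes) and above them for 0 (6.46%). Replicates 2 and 3 were both below all day 0 arrays for 32 genes (19.7% of all genes). Replicate 1 exceeded both of them by more than 2 log2 units for 23 genes (6.34% of all genes) and was the highest of all 13 arrays for 22 (18.2% of all genes), among them Mki67, Top2a, Bub1, Bub1b, Ndc80 and Ncaph.

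The high array was not high for every mitosis gene. On day 2 replicate 1, 29 genes were above all day 0 arrays (27.9% of all genes) and 9 were below them (51%): Aurka, Aurkb, Cdk1, Espl1, Kif20a, Melk, Nek2, Racgap1 and Smc4. Cyclins and kinases had a median of -0.61 against the day 0 mean on this array, while chromosome structure genes had 2.29, kinetochore genes 2.13 and checkpoint genes 1.52. Racgap1, for example, was at 5.16 there and at 6.49 to 9.29 on the other 12 arrays. On the probe sets that stood for them, Aurkb and Racgap1 had their lowest level of all 13 arrays there. For some genes the reading depended on the probe set. On further probe sets past the filter, Racgap1 (3.02), Nek2 (3.71) and Smc4 (8.34 and 5.32) were at or above their lowest day 0 level on this array. That of Aurkb (2.28) was below day 0. Cdc20 was at 13.42 on this array, and at 6.32 on another of its probe sets. This array also had the largest 3-prime to 5-prime gap, whose part in these levels was not tested.

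By day 3 the 2 arrays lay on either side of day 0, so each is given alone. No mitosis gene passed against day 0, beside 0.467% of all genes that fell and 0.352% that rose (limma), and 1 had an unadjusted p below 0.05, as higher (5.87% of all genes). Replicate 1 was below all day 0 arrays for 29 genes (32.9% of all genes) and above them for 6 (29.5%), with a median difference from the day 0 mean of -0.52. Replicate 2 was above all day 0 arrays for 35 genes (31.2% of all genes) and below them for 4 (34.3%), which were Aurka, Cdk1, Nek2 and Smc4, with a median of 1.13. Replicate 2 exceeded replicate 1 for 43 of the 46 genes (47.1% of all genes), and by more than 1 log2 unit for 32 (14.9%). Of the 18 blood markers 12 were higher on replicate 2, among them Ptprc, which encodes CD45 (9.18 against 5.34), 4 were higher on replicate 1, among them the granule protease genes Ctsg (11.58 against 10.97) and Prtn3 (10.37 against 8.87), and 2 were equal. Both arrays were above all day 0 arrays for 6 genes (15% of all genes): Cdc20, Pttg1, Kif2c, Kif22, Cenpa and Spc24. Both were below them for Cdk1 and Smc4 (20.5% of all genes). For Cdc20, Kif2c and Kif22 (suffix x) and for Pttg1 (suffix s) the probe set was of a class that can bind other transcripts. A further probe set was also above day 0 on both arrays for Cdc20 (9.24 and 9.88) and Pttg1 (8.31 and 8.78). Further ones inside the day 0 range were those of Cdc20 (4.13 on replicate 1), Kif2c (2.37 on both) and Kif22 (2.50 on replicate 1). So were those of Cenpa (3.25 on replicate 2) and Pttg1 (4.91 on replicate 1). Kif22 passed as higher without day 2 replicate 1 (1.38 ± 0.33, adjusted p = 0.0428), beside 3.16% of all genes that rose and 4.53% that fell, and 1 gene passed as higher without day 3 replicate 1 (1.3% of all genes).

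Between days of co-culture, no mitosis gene passed. From day 1 to day 3 all 46 were higher in the mean, with a median difference of 1.64 against -0.02 over all genes, and both day 3 arrays were above all day 1 arrays for 21 (8.28% of all genes). The smallest of these differences was 0.47 (Ska1) and the largest 3.37 (Mki67, ± 2.11). None had an adjusted p below 1, beside 0% of all genes that rose and 0.00819% that fell (limma), and 11 had an unadjusted p below 0.05, all higher (1.79% of all genes). The median was 0.70 without day 3 replicate 2 and 2.61, with 1 gene higher past the threshold (0.811% of all genes), without day 3 replicate 1. Without day 2 replicate 1 the count was 0, beside 0.197% and 0.0246% of all genes higher and lower. From day 1 to day 2 the median was 0.97, with 0 genes past the threshold, 0 at an unadjusted p below 0.05 and 0 whose groups did not overlap, beside 0% of all genes that rose, 0.00819% that fell and 2.5% upwards and 9.89% downwards without overlap. It was 0.05 without day 2 replicate 1, and 1 gene passed as lower without day 2 replicate 3 (13.1% of all genes). The comparisons above share their day 0, medium or day 1 arrays.

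Other probe sets of the same genes were read for the same comparison on day 1. Of the 46 genes 24 had more than 1 probe set past the filter, 33 further probe sets in all, and 28 of these were lower on day 1 of co-culture than in the medium control, 16 by more than 1. Smc4's 2 further probe sets differed by -5.18 and -5.72. Those of Kif11 differed by -1.68 and -0.12, and those of Ska1 by -0.10 and 0.20, so that the fall of Ska1 rests on 1 probe set and that of Kif11 was smaller in the others. With the mean of all probe sets, Ska1 differed by -0.96 (adjusted p = 0.171) and Kif11 by -2.0 (0.103). Aurkb, Cdc20, Kif22, Kif2c and Ncaph, 5 genes, were represented by a probe set with the suffix x, a class that can bind other transcripts. Their median difference on day 1 was -0.04, from -2.64 to 0.84, against -2.42, from -4.20 to -0.37, for the other 41. The other 41 included probe sets with the suffix s for Bub1b (-0.45), Nek2 (-2.01) and Pttg1 (-0.37). That class can also bind other transcripts.

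A wider list of 66 mitotic genes outside the set, of which 64 were matched and 60 tested, was read in the same way. On day 1 against the medium control 1 of 60 fell, the centromere gene Cenph (-2.72 ± 0.58, adjusted p = 0.0341), beside 3.05% of all genes, and 51 were lower in the mean, with a median of -1.36. Without day 2 replicate 1, 17 were lower and 1 higher past the threshold, beside 9.62% and 7.61% of all genes. After the medium change alone the median was 0.56, and on day 1 against day 0 it was -0.56, with 0 genes past the threshold in either (limma, 5 higher and 10 lower at an unadjusted p below 0.05, beside 4.9% and 9.77% of all genes). On day 2 the microtubule polymerase gene Ckap5 fell against day 0, by -3.14 ± 0.59 (adjusted p = 0.0358), 1 of 60 beside 1.62% of all genes. No gene of the list passed on day 3 against day 0, from day 1 to day 2 or from day 1 to day 3. At an unadjusted limma p below 0.05, 1 was higher and 2 lower on day 3 against day 0 (5.87% and 7.92% of all genes). From day 1 to day 2 there were 2 higher and 4 lower (1.96% and 10.7%). From day 1 to day 3 there were 7 and 0 (1.79% and 1.13%).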

How the data were processed

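RNA of 13 samples was hybridised to Affymetrix mouse arrays. The deposited values are log2 expression values, 1 per probe set and array, as read from their range of 2.28 to 15.7. Per the submitters' processing notes RMA and GCRMA were used, with no version or role stated. They were used as deposited. Of 45101 probe sets, 64 controls were left out, 34945 had 1 symbol, 932 several and 9211 none. The filter kept probe sets above 2.38, the pooled median, on 2 or more arrays, and the highest mean over all arrays chose 1 per gene, giving 12205 genes.

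Arrays were grouped by their titles. A single fit of group means over all 13 arrays in limma 3.58.1 (R 4.3.3, eBayes) gave 7 comparisons. Benjamini-Hochberg adjustment was made over the 12205 genes, with a threshold of 0.05. The fit was also run on simulated data with independent normal noise. Those data held no arrays that stood apart, so the run cannot show how the fit behaves with such arrays. Differences carry standard errors. Replicates are biological in the titles but technical in the design text, and p-values therefore reflect just the spread among these arrays, which may be technical. The number of arrays limits the precision. Deviations of same-numbered samples from their group means had correlations from -0.371 to 0.261 (23 pairs), and numbers were not taken as pairs.

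The genes, the wider list, the marker lists and the motifs were chosen with earlier results of these data known. Values on every array are given for genes past the threshold and for Mki67, Top2a, Cdk1, Plk1, Aurkb, Aurka, Bub1, Kif11 and Ska1 (Ccnb1, also on that list, had no probe set); for the others, ranges and counts, with single values for some, and from the wider list up to 4 genes a comparison with the smallest adjusted p. Other filters, scalings, probe set rules, variance models and samples in the fit were tried. Promoter sequences are RefSeq's (GRCm38.p6). Figures were drawn with Python 3.11.15.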

Additional observations from a re-analysis of the deposited data

Results flagged for a closer look

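Some probe sets that did not represent their gene were more than 1 log2 unit above all 5 arrays without LSK cells on a co-culture array. On day 2 replicate 1 these were probe sets of Bub1b at 8.46 (highest level without LSK cells 7.22) and 5.58 (2.42), Ncaph at 9.0 (6.55), Cdc20 at 6.34 (4.33) and Kif11 at 5.19 (2.50). Further ones there were Ska1 at 4.66 (2.96) and 3.98 (2.28), Spc25 at 4.54 (2.41) and Kif2c at 3.41 (2.28). On day 3 replicate 2 they were Pttg1 at 7.07 (5.02), Top2a at 4.50 (2.44) and Kif22 at 4.48 (2.94). Cenpa was the exception, at 5.08 on day 3 replicate 1 (3.41). Of the 13, 12 were thus highest on the 2 arrays with the highest median blood marker level, whose part was not tested. The flag looked for high levels only, and some further probe sets were low on day 2 replicate 1. One of Cdc20 (6.32) and one of Anln (2.97) had their lowest level of all arrays there, and one of Tpx2 was at 3.13. The probe sets that stood for these genes were at 13.42, 10.19 and 7.61 on that array.

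Cenpa's representative probe set lay below all day 0 arrays on every day 1 co-culture array (9.45, 9.12 and 8.19 against 9.57 to 10.27) and above them on both day 3 arrays (10.60 and 11.51). Between day 1 and day 3 of co-culture it differed by 2.13, with an adjusted p of 1 in limma.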

How the results depend on the processing

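The median difference over the 46 genes kept its sign under every alternative for day 1 with LSK cells against the medium control (-2.48 to -1.82) and against day 0 (-1.98 to -1.15), for the medium control against day 0 (0.58 to 1.02) and between days of co-culture, while the number of genes past the threshold moved. Against the medium control that number was 4 in the text. It was 1 with no filter (1.44% of all genes fell), 2 after quantile normalization (2.62%) and 1 with array medians set equal (1.22%). With the compared groups fitted alone it was 24, where 19.6% of all genes fell and 17.9% rose (3.05% and 2.15% in the text's fit). Without both arrays that stood apart it was 27 (11.9% and 9.23%). Leaving out 1 array outside the medium control gave 1 to 24 (0.262% to 9.62% fell). For the medium control against day 0 the number was 1 in the text, and leaving out 1 array put the median between 0.75 and 1.02. The number was 0 under the stricter filter, which left Ska1 out, with medians set equal and with the mean of probe sets. With the compared groups alone it was 2 (0.385% of all genes rose), as it was without both arrays (1.71%). Leaving out 1 array outside the medium control gave 1 to 2 (0.0492% to 0.778%). For day 1 against day 0 (0) it was 8 with the compared groups alone (8.68% of all genes fell), 16 without both arrays (7.97%) and 0 to 7 leaving out 1 array. For day 2 against day 0 (1) it was 0 with no filter, quantile normalization, medians set equal, trended robust variances or the compared groups alone, 6 without both arrays (2.22% of all genes fell) and 0 to 4 leaving out 1 array. For day 3 against day 0, and for days 2 and 3 against day 1, it was 0 to 1 leaving out 1 array. The day 3 median against day 0 lay between -0.52 and 1.13 and that against day 1 between 0.70 and 2.61; without both arrays they were -0.52 and 0.70. The median level was 6.98 on day 0 after quantile normalization or with medians set equal and 6.28 with the mean of probe sets (7.24 in the text's setting). It was 7.68, 7.74 and 7.0 in the medium control under these 3 settings, and 6.51 on day 3 with the mean of probe sets. Among 635 values of single genes under alternatives, 560 kept their side of the threshold, 56 lost and 19 gained a call. The causes were not tested.

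Replicate numbers were not taken as pairs: of 23 same-numbered pairs 8 had a correlation over 0.1, and of 44 others 12. These are correlations of deviations from group means, which cancel within a group, so the pairs are not independent. The check therefore cannot decide whether numbers pair the samples. With the replicate number as a block, 1 gene passed on day 1 against the medium control (1.16% of all genes fell) and 0 on day 2 against day 0 (0.156%). The medium control's median difference from day 0 was then 0.58, and the day 3 median against day 0 was -0.09. No other count over the 46 genes changed under the block.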
